A study of Mus musculus with 2 samples.

Results

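A set of 10 genes of secreted matrix, surface receptors and lipid handling in monocytes and macrophages, Fn1, Thbs1, Spp1, Gpnmb, Mrc1, F13a1, Ear2, Pmp22, Lpl and Sdc1, was followed in 2 mouse cultures of myeloid-derived suppressor cells (MDSCs). MDSCs are immature myeloid cells, both neutrophil-like and monocyte-like, that restrain T cells. The genes were taken by symbol from the 32285 genes of the deposited feature tables, and all 10 were found. They were picked with their differences between the cultures already known. Their ratios and shares of cells, over whole libraries or within clusters, thus describe these libraries and carry no test.

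The Selinexor culture received 50 nM Selinexor for 4 days beside IL-6 and GM-CSF, each cytokine at 40 ng/mL. Selinexor is an inhibitor of the nuclear export receptor exportin 1. The DMSO culture had the same cytokines for the same time with the vehicle alone. Viable cells carrying CD11b were sorted from each culture and captured on the 10x Genomics platform, and neither the mouse strain nor the number of animals is given in the labels. Since there is 1 library per group, the spread between cultures is unknown, no p-value is given, and the intervals cover counting error only.

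Filtering kept 1967 Selinexor cells and 1743 DMSO cells, which together held 12841480 and 14222344 unique molecular identifiers (UMIs, counted transcripts). Median depth was 3984 UMIs per Selinexor cell and 7788 per DMSO cell, and 39.8% of Selinexor cells and 18.0% of DMSO cells held fewer than 2000. Itgam, which encodes the sorted marker CD11b, had a UMI in 68.5% of Selinexor cells and 76.0% of DMSO cells. No barcode occurred in both libraries (0 shared).

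Fibronectin (Fn1), thrombospondin 1 (Thbs1) and osteopontin (Spp1) are secreted proteins that integrins, CD44, CD36 and CD47 bind, and macrophages release them into healing and tumour tissue. Factor XIII-A (F13a1) crosslinks fibrin and fibronectin, and syndecan 1 (Sdc1) is a cell-surface heparan sulfate proteoglycan. The mannose receptor (Mrc1) takes up glycoproteins, lipoprotein lipase (Lpl) releases fatty acids from triglycerides, and Gpnmb is a lysosomal and surface glycoprotein of lipid-laden macrophages. Pmp22 is a multi-pass membrane protein best known from myelin, and Ear2 is a secreted ribonuclease of the eosinophil-associated family.

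The upstream sequences of Spp1, Mrc1, F13a1 and Gpnmb are shown because they differ in a motif of the myeloid lineage, the core GAGGAA bound by the transcription factor PU.1. They come from the RefSeq promoter table of build GRCm38.p6 and end just before the gene's start. Capitals mark PU.1 cores on either strand (GAGGAA or TTCCTC) and the TATA-box letters TATAAA. These are matches of letters only. Spp1 lies on the plus strand and its window is chr5:104434861-104435110. Mrc1, also on the plus strand, is shown over chr2:14229164-14229391, with the last bases before the RefSeq start left out because the GENCODE transcript already begins there. F13a1 lies on the minus strand with the window chr13:37050245-37050494, and Gpnmb on the plus strand with chr6:49036268-49036517.
Spp1: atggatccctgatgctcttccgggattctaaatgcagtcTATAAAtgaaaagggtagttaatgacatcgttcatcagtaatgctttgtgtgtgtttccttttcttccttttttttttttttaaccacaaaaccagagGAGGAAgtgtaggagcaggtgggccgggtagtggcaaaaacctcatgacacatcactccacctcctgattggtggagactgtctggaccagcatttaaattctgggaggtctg
Mrc1: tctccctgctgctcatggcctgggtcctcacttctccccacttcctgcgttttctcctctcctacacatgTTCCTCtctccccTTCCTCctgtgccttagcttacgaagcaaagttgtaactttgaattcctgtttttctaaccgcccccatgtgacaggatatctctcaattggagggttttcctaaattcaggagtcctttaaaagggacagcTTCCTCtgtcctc
F13a1: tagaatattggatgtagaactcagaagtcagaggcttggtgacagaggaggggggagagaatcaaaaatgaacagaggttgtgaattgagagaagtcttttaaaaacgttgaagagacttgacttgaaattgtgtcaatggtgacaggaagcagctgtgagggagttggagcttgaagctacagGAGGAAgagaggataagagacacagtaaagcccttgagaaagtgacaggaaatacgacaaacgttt
Gpnmb: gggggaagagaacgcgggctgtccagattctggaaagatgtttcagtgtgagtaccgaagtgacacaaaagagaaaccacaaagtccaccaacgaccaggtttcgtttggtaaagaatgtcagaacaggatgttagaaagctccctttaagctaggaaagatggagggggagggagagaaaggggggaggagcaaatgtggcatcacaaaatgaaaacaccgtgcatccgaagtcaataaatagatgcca

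Of the 10 genes, 7 were in the promoter table, and Fn1, Thbs1 and Lpl were not. The table holds 4 windows for Pmp22, 2 each for Spp1 and F13a1 and 1 for each other gene, and the window nearest the GENCODE start was read. In the 250 bases before that RefSeq start, Mrc1 held 3 PU.1 cores, Spp1, F13a1 and Sdc1 held 1 each, and Gpnmb, Ear2 and Pmp22 held 0. A PU.1 core occurred in 23.3% of 32851 promoters of that length. The AP-1 letters TGANTCA were in 0 of these 7 windows, against 6.75% of all promoters. The letters TATAAA were found in Spp1 alone of the 7, at position -211 from the RefSeq start, against 12.4% of all promoters. Whether they act as a TATA box there was not tested. The E-box CANNTG was found in 6 of the 7, against 66.2%. Over all 12 windows of these genes, the genes with a PU.1 core, the AP-1 letters or the letters TATAAA were the same. The E-box was also found in 1 window of Pmp22.

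Across whole libraries, Fn1, Pmp22, Sdc1, Gpnmb, Ear2, Mrc1, Thbs1 and F13a1 were at least 1.5-fold higher in the Selinexor library than in the DMSO library, Lpl was nearly level, and Spp1 was lower by less than 1.5-fold. That is 8 of 10 higher and 0 of 10 lower. A gene counted as measured when the libraries together held 50 or more of its UMIs. Of 10393 measured genes, 9.83% were higher by this size and 3.88% lower by it. Since the genes were chosen by this contrast, nothing is read from their excess. Their median log2 ratio was 1.15, beside 0.13 for all measured genes. Levels are in CPM, a gene's UMIs per 1000000 UMIs of its library. A log2 ratio is the log2(CPM + 1) of the Selinexor library less that of the DMSO library. The 95% interval in brackets is that of the plain CPM ratio, so it can lie off centre for genes with few counts.

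Among the matrix proteins, Fn1 (chr1:71585520-71653200, minus strand, mm10) had 8687 UMIs (676 CPM) in the Selinexor library and 1235 UMIs (86.8 CPM) in the DMSO library, a log2 ratio of 2.95 (2.88 to 3.05). By ratio, Fn1 ranked 9th of the 10393 measured genes. Thbs1 (chr2:118111876-118127133, plus strand) had 11750 UMIs (915 CPM) in the Selinexor library and 7431 UMIs (522 CPM) in the DMSO library, a log2 ratio of 0.81 (0.77 to 0.85). Spp1 (chr5:104435118-104441050, plus strand) went the other way, with 5196 UMIs (405 CPM) in the Selinexor library and 7555 UMIs (531 CPM) in the DMSO library, a log2 ratio of -0.39 (-0.44 to -0.34). The 3 secreted ligands thus did not move as a block. The unnamed gene Gm42793 overlaps Spp1 on the same strand, and reads of the overlap could belong to either.

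The crosslinking enzyme and the proteoglycan were both higher with Selinexor. F13a1 (chr13:36867178-37050244, minus strand) had 1655 UMIs (129 CPM) in the Selinexor library and 1042 UMIs (73.3 CPM) in the DMSO library, a log2 ratio of 0.81 (0.70 to 0.93). Sdc1 (chr12:8771323-8793715, plus strand) was sparse, with 195 UMIs (15.2 CPM) in the Selinexor library and 57 UMIs (4.01 CPM) in the DMSO library, a log2 ratio of 1.69 (1.49 to 2.37).

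The receptor and lysosomal genes were higher with Selinexor while the lipase was not. Mrc1 (chr2:14229392-14332057, plus strand, with the microRNA gene Mir511 inside it) had 2379 UMIs (185 CPM) in the Selinexor library and 1238 UMIs (87.0 CPM) in the DMSO library, a log2 ratio of 1.08 (0.99 to 1.19). Gpnmb (chr6:49036546-49070929, plus strand) had 895 UMIs (69.7 CPM) in the Selinexor library and 309 UMIs (21.7 CPM) in the DMSO library, a log2 ratio of 1.64 (1.49 to 1.87). Lpl (chr8:68880491-68907448, plus strand) had 9939 UMIs (774 CPM) in the Selinexor library and 10289 UMIs (723 CPM) in the DMSO library, a log2 ratio of 0.10 (0.06 to 0.14). The Lpl ratio was close to the 0.13 of the median gene.

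Pmp22 and Ear2, the genes known best from other lineages, were also higher. Pmp22 (chr11:63128982-63159547, plus strand) had 400 UMIs (31.1 CPM) in the Selinexor library and 79 UMIs (5.55 CPM) in the DMSO library, a log2 ratio of 2.29 (2.14 to 2.85). Ear2 (chr14:44102654-44103534, plus strand) had 330 UMIs (25.7 CPM) in the Selinexor library and 150 UMIs (10.5 CPM) in the DMSO library, a log2 ratio of 1.21 (1.00 to 1.57). Ear2 belongs to a family of near-identical copies, so its count is uncertain where reads could be assigned to a relative. The plot of CPM in both libraries shows the set side by side.

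**Figure D1:**
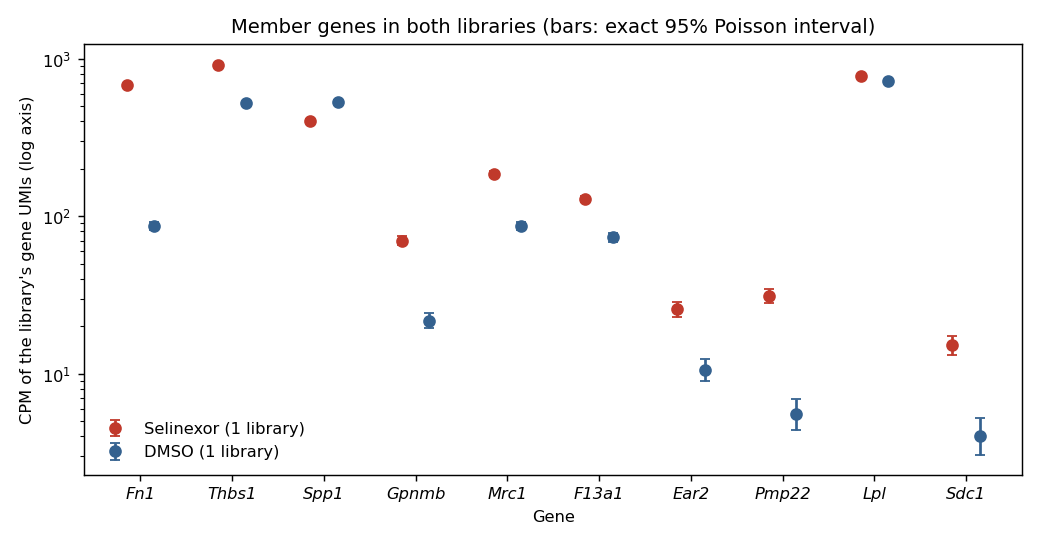
Level of each gene in CPM (log axis) in the Selinexor library (red) and the DMSO library (blue), 1 library each, with exact 95% Poisson intervals as bars. Fn1, Pmp22 and Sdc1 are the most separated, Lpl is nearly level at 774 and 723 CPM, and Spp1 alone is lower with Selinexor (405 and 531 CPM).

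Several genes of this set are also known from other cell types, whose marker lists were read over the whole libraries. Eosinophils carry CD11b themselves, so the sort would keep them. Of 7 fibroblast genes, 4 had 0 UMIs in the Selinexor library and 5 in the DMSO library, and all 7 summed to 11 and 15 UMIs. Among 5 eosinophil genes, Siglecf had 33 UMIs in each library, while Epx and Prg2 had 0 in both. Of the B and plasma cell genes, Jchain had 0 UMIs in both libraries, and the list summed to 4.75 CPM in the Selinexor library and 7.03 CPM in the DMSO library. The Schwann cell gene Sox10 had 0 UMIs in both, and the list summed to 26.3 CPM with Selinexor and 23.9 CPM with DMSO, nearly all from Mbp. The megakaryocyte list summed to 4.98 CPM in the Selinexor library and 32.9 CPM in the DMSO library, nearly all from Pf4, which also led the DMSO macrophage-like cluster described next.

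Cells of both libraries were grouped into 13 clusters by their expression, with the 10 genes left out of the variable genes so that they did not shape the groups. Names were given from marker lists, and 5 clusters (1, 6, 7, 10 and 12) stayed unnamed. Cluster 3 was called monocyte-like by Ccr2, Klf4, Psap and Ctss, the 4 of 11 monocyte markers at least 2-fold higher than in the other cells. No monocyte marker was among its 10 leading genes, and Ly6c2 (-0.35), Ms4a6c (-0.18) and F10 (-0.12) were below the other cells on the log2 scale. Of the same 11 markers, 5 were at least 2-fold higher in macrophage-like cluster 9 and 4 in dendritic cell-like cluster 8. The monocyte list alone thus did not set cluster 3 apart from clusters 8 and 9. Of 12 macrophage markers, 9 were at least 2-fold higher in cluster 9 and 1 in cluster 3. Cluster 3 held 345 Selinexor cells and 12 DMSO cells. Cluster 9, macrophage-like, held 4 Selinexor cells and 123 DMSO cells, and cluster 1, unnamed and with the cystatin gene Csta3 in the lead, held 14 Selinexor cells and 367 DMSO cells. A cluster drawn mostly from 1 library may reflect that library and not a cell type, and with 1 library a group these cannot be told apart. The monocyte list as a whole summed to 4569 CPM in the Selinexor library and 2707 CPM in the DMSO library. The macrophage list summed to 1083 CPM with Selinexor and 981 CPM with DMSO, and 2 of its 12 genes were higher by 1.5-fold or more and 7 lower. Ratios without these clusters are given below.

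In the Selinexor library, cluster 3 held most UMIs of 6 of the 10 genes. Its share was 76.9% for Mrc1, 73.3% for Sdc1, 71.3% for Spp1, 69.2% for Fn1, 68.5% for Pmp22 and 58.8% for Lpl. Cluster 3 had 17.5% of the library's cells but 4101648 of its 12841480 UMIs, with a median of 11746 UMIs per Selinexor cell. A share of a gene's UMIs thus depends on depth as well as level. It held 49.4% of F13a1, 46.0% of Gpnmb and 38.8% of Ear2 UMIs, but only 21.0% of Thbs1. Fn1, Pmp22, Sdc1 and Mrc1 were among the 10 leading genes of cluster 3, which describes that cluster and is no test.

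In the DMSO library, clusters 9, 1 and 6 were the 3 largest holders of Fn1, Spp1, Lpl, F13a1 and Pmp22. Of the library's 14222344 UMIs, cluster 9 held 1402249, cluster 1 held 3607752 and cluster 6 held 2639346. The shares given next depend on this depth as well as on level. Cluster 9, with 7.06% of the DMSO cells, held 63.2% of Sdc1, 52.8% of Mrc1, 36.7% of Pmp22, 35.1% of F13a1, 34.1% of Fn1 and 26.8% of Spp1 UMIs. Cluster 1, with 21.1% of the DMSO cells, held 41.9% of Lpl, 40.7% of Ear2, 35.2% of F13a1, 25.6% of Spp1 and 21.5% of Fn1 UMIs. Cluster 6, with 9.87% of the DMSO cells, held 25.3% of Pmp22, 22.7% of F13a1, 22.3% of Lpl, 22.0% of Fn1 and 21.3% of Spp1 UMIs. By UMIs, Mrc1 and Sdc1 thus sat mainly in the macrophage-like cells of the DMSO culture and Lpl and Ear2 more in cluster 1. By level, Lpl stood at 1196 CPM in DMSO cluster 1 and 1273 CPM in DMSO cluster 9. Ear2 had 30 of its 150 DMSO UMIs in cluster 2, beside 1 in cluster 9. Gpnmb had 27.5% of its DMSO UMIs in cluster 9 and 25.6% in cluster 10, and Thbs1 had 22.9% in cluster 4 and 22.8% in cluster 1.

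**Figure D2:**
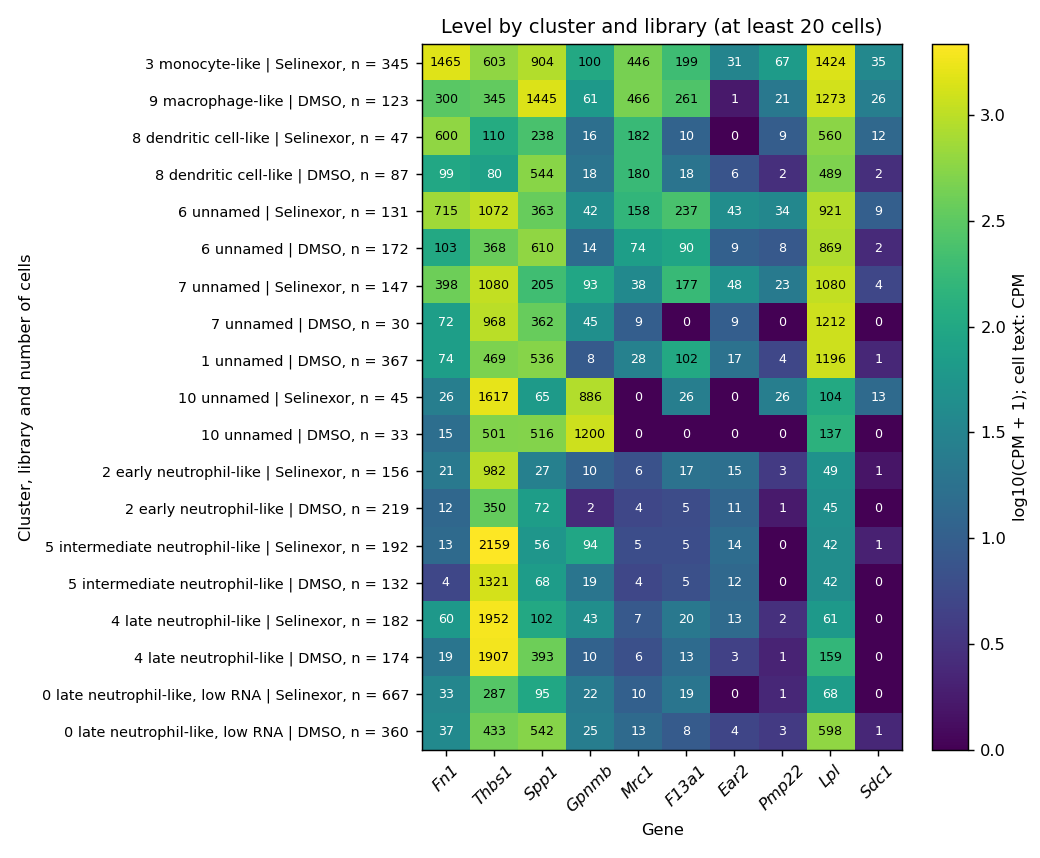
Level of each gene (columns) by cluster and library (rows, for sums of at least 20 cells, Selinexor above DMSO within a cluster), coloured by log10(CPM + 1) with the CPM printed in each field. Fn1 is at 1465 CPM in Selinexor cluster 3 and 300.2 CPM in DMSO cluster 9, Thbs1 is at 1952 CPM in Selinexor cells and 1907 CPM in DMSO cells of cluster 4, and Gpnmb is highest in cluster 10.

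Thbs1 goes against the label of monocyte and macrophage genes, since much of it lay in neutrophil-like cells. The 4 neutrophil-like clusters (0, 2, 4 and 5) held 44.5% of Thbs1 UMIs in the Selinexor library and 52.9% in the DMSO library. In late neutrophil-like cluster 4, Thbs1 stood at 1952 CPM in Selinexor cells and 1907 CPM in DMSO cells. It was not high in all of them, at 287 CPM in Selinexor cells and 433 CPM in DMSO cells of cluster 0. Gpnmb, with 16.8% of its Selinexor UMIs and 14.9% of its DMSO UMIs in the neutrophil-like clusters, stood highest in cluster 10, a group of 45 Selinexor and 33 DMSO cells with few UMIs that was led by the chemokine genes Ccl4 and Ccl3 and by Gpnmb itself, at 886 CPM in Selinexor cells and 1200 CPM in DMSO cells. Ear2 had 50 of its 330 Selinexor UMIs and 45 of its 150 DMSO UMIs in the neutrophil-like clusters, and Spp1 had 4.45% and 13.2% of its UMIs there. For Mrc1, Sdc1, Fn1, Pmp22, F13a1 and Lpl the neutrophil-like clusters held under 10% of the UMIs in both libraries. The largest of these shares were 7.22% for Lpl and 6.48% for Fn1, both in the DMSO library.

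Ratios were also taken within the clusters that both libraries filled with at least 30 cells. There were 8 such clusters (0, 2, 4, 5, 6, 7, 8 and 10), which gave 58 pairs of gene and cluster with at least 10 UMIs. In 26 of these pairs the Selinexor cells were higher by 1.5-fold or more, and in 11 they were lower, where 19.5% and 13.9% of all such pairs over all genes were. The pairs hold UMIs of the same libraries, for genes chosen by this contrast. Nothing is thus read from their excess, here or in single clusters. Cells of 1 cluster come from 1 culture per group, so clusters are not replicates of the treatment.

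Fn1 was higher in Selinexor cells in 6 of 7 clusters and Spp1 was lower in 7 of 8. Gpnmb was higher in 5 of 8, Thbs1 in 4 of 8, F13a1 in 4 of 6 and Ear2 in 3 of 5, with Thbs1 and F13a1 each lower in 1. Mrc1 was higher in 2 of 5 and Lpl lower in 2 of 8. Pmp22 was higher in 1 of 2, since 28 UMIs in Selinexor cells and 0 in DMSO cells of cluster 7 allow no fold, and Sdc1 was higher in the 1 cluster where it could be compared. Of the 37 pairs past 1.5-fold, 7 had a counting interval that included 0, 6 of them higher and 1 lower. They were Fn1 in cluster 5 (13 UMIs in Selinexor cells and 3 in DMSO cells), Ear2 in clusters 4 and 7, F13a1 in clusters 0 and 8, and Gpnmb and Mrc1 in cluster 7. Spp1 thus differed in the same direction in most clusters, while its whole-library ratio was small. In neutrophil-like clusters 2 and 4 the higher Fn1 also rested on few UMIs. It had 40 UMIs in Selinexor cells and 32 in DMSO cells of cluster 2, and 32 and 17 in cluster 4. The part of free RNA in these Fn1 counts was not tested.

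By cluster, the early neutrophil-like cells of cluster 2 had 4 of 8 genes higher with Selinexor and 1 lower, where 8.35% of all genes were higher and 10.8% lower. The late neutrophil-like cluster 4 had 3 of 7 higher and 2 lower (30.3% and 13.1% of all genes), and the intermediate neutrophil-like cluster 5 had 3 of 6 higher and 0 lower (20.7% and 13%). Cluster 0, the late neutrophil-like cells with little RNA, had 1 of 7 higher and 3 lower (23.2% and 14.6%). Its name rests on 5 of 11 late neutrophil markers at least 2-fold higher than in the other cells. Retnlg (-2.72), S100a9 (-1.43), G0s2 (-1.26), S100a8 (-0.89) and Mmp8 (-0.09) were below the other cells on the log2 scale. Cluster 10 had 1 of 4 higher and 1 lower (23% and 23.3%), and cluster 7 had 5 of 9 higher and 1 lower (26.8% and 23%). In cluster 10 the counts were thus near those of all genes.

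**Figure D3:**
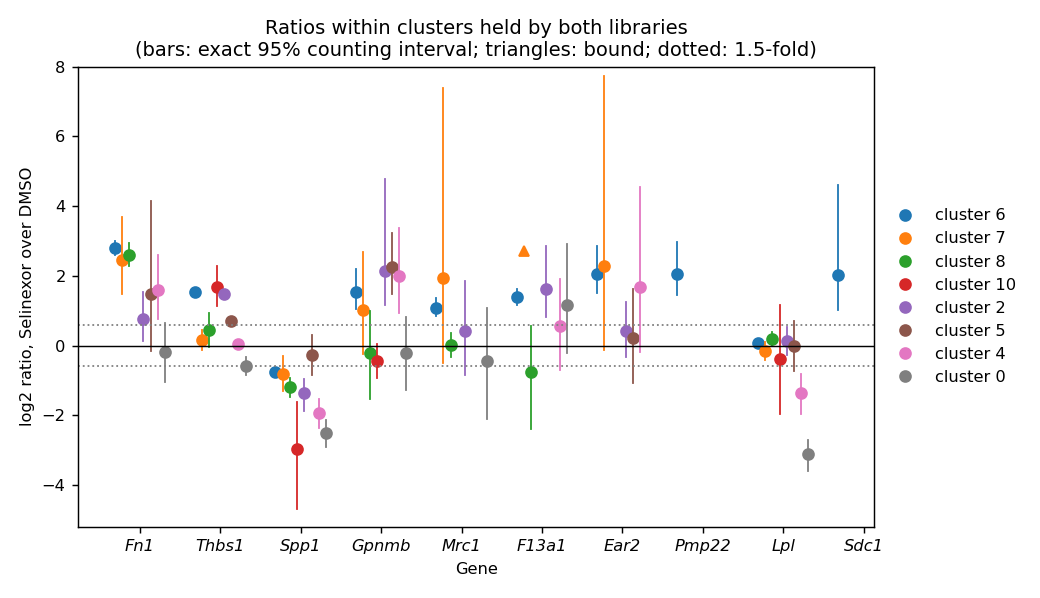
Log2 ratio of Selinexor cells over DMSO cells (y axis) for each gene (x axis) within each cluster of at least 30 cells per library, with exact 95% counting intervals as bars, dotted lines at 1.5-fold, and a triangle for a bound against a floor of 3 counts. Fn1 lies above the upper dotted line in 6 of 7 clusters and Spp1 below the lower one in 7 of 8.

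Cluster 6, whose cells nearly all held a UMI of the proliferation genes Mki67 or Top2a (99.7%), gave the best counted comparison, with 131 Selinexor and 172 DMSO cells of similar depth (median 16652 and 15417 UMIs). In it 8 of the 10 genes were at least 1.5-fold higher in Selinexor cells and 1 was lower, where 16.7% and 7.39% of all genes were. Fn1 had 1564 UMIs (715 CPM) in Selinexor cells and 272 UMIs (103 CPM) in DMSO cells, a log2 ratio of 2.78 (2.61 to 2.99). Thbs1 had 2344 UMIs in Selinexor cells and 970 in DMSO cells (1.54, 1.44 to 1.65). Spp1 had 793 UMIs in Selinexor cells and 1609 in DMSO cells (-0.75, -0.87 to -0.63). These 3 matrix genes kept within cycling cells the order they had in the whole libraries.

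In the same cluster F13a1 had 518 UMIs in Selinexor cells and 237 in DMSO cells (log2 ratio 1.39), and Mrc1 had 345 and 195 (1.08). Ear2, Pmp22 and Gpnmb were also higher, with log2 ratios of 2.06, 2.04 and 1.54, and Sdc1 had 20 UMIs in Selinexor cells and 4 in DMSO cells. Lpl was level, with 2014 UMIs (921 CPM) in Selinexor cells and 2293 UMIs (869 CPM) in DMSO cells (0.08, with an interval that includes 0 and ends at 0.17).

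In dendritic cell-like cluster 8 (47 Selinexor and 87 DMSO cells), Fn1 had 343 UMIs in Selinexor cells and 108 in DMSO cells, a log2 ratio of 2.59 (2.29 to 2.93). Mrc1, which stood at 182 CPM in Selinexor cells and 180 CPM in DMSO cells there, had a ratio of 0.02 (-0.34 to 0.37). Spp1 had 136 UMIs in Selinexor cells and 595 in DMSO cells (-1.19, -1.47 to -0.92). In this cluster 1 of 7 genes was higher and 2 were lower, beside 14.1% and 15.2% of all genes. Mrc1 was thus level between the Selinexor and DMSO cells of cluster 8, although its whole-library ratio was 1.08. The name of the cluster rests on 7 of 11 dendritic cell markers at least 2-fold higher than in the other cells. Flt3 had 1 UMI there and Clec9a 0. Of 12 macrophage markers, 4 were also at least 2-fold higher, and C1qa was among the 10 leading genes. Which cells of the cluster held Mrc1 was not tested.

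The unnamed cluster 7 held 147 Selinexor cells with a median of 9085 UMIs and 30 DMSO cells with a median of 1979, so its ratios compare cells of unlike depth. F13a1 had 216 UMIs in its Selinexor cells and 0 in its DMSO cells, at least 6.52-fold higher against a floor of 3 counts over the DMSO cells. Fn1 had 485 UMIs in Selinexor cells and 8 in DMSO cells (2.44, 1.47 to 3.68). Ear2 was one of the genes that led this cluster, ranked below the basophil genes Mcpt8 and Prss34, among others. Mcpt8 had 0 UMIs in its Selinexor cells and 269 in its DMSO cells, all from 4 cells, and Prss34 had 0 in Selinexor cells and 98 in DMSO cells. The part of these cells in the ratios of cluster 7 was not tested.

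In the neutrophil-like clusters together, 4 of 8 genes with at least 50 UMIs there were higher with Selinexor (Fn1, Thbs1, Gpnmb and F13a1) and 2 were lower (Spp1 and Lpl). Of all genes, 9.49% were higher and 5.89% lower. In all the other clusters together 8 of 10 genes were higher and 0 lower, where 11.9% and 5.26% of all genes were. Spp1 had 231 UMIs (55.9 CPM) in the 1197 Selinexor cells and 1001 UMIs (199 CPM) in the 885 DMSO cells, a log2 ratio of -1.81 (-2.04 to -1.62). Lpl had 216 UMIs (52.2 CPM) in Selinexor cells and 743 UMIs (147 CPM) in DMSO cells (-1.48, -1.72 to -1.28). Thbs1 had 5229 UMIs (1264 CPM) in Selinexor cells and 3933 UMIs (780 CPM) in DMSO cells (0.70, 0.64 to 0.76). Gpnmb had 150 UMIs in Selinexor cells and 46 in DMSO cells (1.88). Fn1 had 109 UMIs in Selinexor cells and 80 in DMSO cells (0.70), and F13a1 had 62 and 35 (1.01). The part of free RNA in these low counts was not tested.

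The ratios of Spp1 and Lpl among neutrophil-like clusters were lowest in cluster 0. Spp1 had 70 UMIs in the 667 Selinexor cells and 409 in the 360 DMSO cells (log2 ratio -2.50, interval -2.90 to -2.14), and Lpl had 50 and 451 (-3.12). The number of Spp1 UMIs per Lpl UMI in the DMSO library was 0.907 in cluster 0, 2.47 in cluster 4, 1.14 in cluster 9 and 0.448 in cluster 1. In the Selinexor library it was 1.40 in cluster 0, 1.67 in cluster 4 and 0.634 in cluster 3. The part of free RNA in the counts of clusters 0 and 4 was not tested.

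The Selinexor cells of cluster 3 and the DMSO cells of cluster 9, the main sources of Mrc1 and Sdc1 in their libraries, were set side by side as different clusters. In this comparison 5 of the 10 genes were higher by 1.5-fold or more and 1 lower, where 7.34% of all genes were higher and 7.49% lower. Against DMSO cluster 1, Selinexor cluster 3 had 8 of 10 higher and 0 lower, where 35.3% and 6.11% of all genes were. Fn1 stood at 1465 CPM in Selinexor cluster 3 and 300.2 CPM in DMSO cluster 9, a log2 ratio of 2.28 (2.14 to 2.43). Pmp22 stood at 66.8 and 20.7 CPM in the same order (1.64, 1.14 to 2.30). Ear2 had 128 UMIs in Selinexor cluster 3 and 1 in DMSO cluster 9, a ratio with a wide interval (2.95 to 10.77 on the log2 scale). Spp1 was lower, at 904 CPM in Selinexor cluster 3 and 1445 CPM in DMSO cluster 9 (-0.68, -0.76 to -0.60).

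Mrc1 stood at 446 CPM in Selinexor cluster 3 and 466 CPM in DMSO cluster 9 (-0.06, -0.19 to 0.07), and Lpl at 1424 and 1273 CPM (0.16, 0.09 to 0.24). Both clusters were the main source of Mrc1 in their library, so nothing is read from its close levels. F13a1 stood at 199 CPM in Selinexor cluster 3 and 261 CPM in DMSO cluster 9 (-0.39, -0.57 to -0.21). Mrc1 stood at 462 CPM in the 4 Selinexor cells of cluster 9, on 25 UMIs of which 17 came from 1 cell. In the 12 DMSO cells of cluster 3 it stood at 438 CPM, on 38 UMIs. Lpl and Spp1 stood at 4025 and 2964 CPM in those 12 DMSO cells, against 1424 and 904 CPM in Selinexor cluster 3.

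Ratios were also taken with clusters left out, settings chosen after the data were seen. Without clusters 1, 3 and 9, each held almost wholly by 1 library, 7 of 10 genes were at least 1.5-fold higher and 1, Spp1, was lower at -1.13, where 7.7% and 4.1% of all genes were. Fn1 came to 2.43, Pmp22 to 1.90, F13a1 to 1.55, Sdc1 to 1.48, Ear2 to 1.34, Gpnmb to 1.33 and Thbs1 to 0.89, while Mrc1 came to 0.32 and Lpl to 0.11. Without cluster 3 alone, which takes out 345 Selinexor cells and 12 DMSO cells and keeps the DMSO-held clusters 1 and 9, a main source of these genes is taken from the Selinexor library alone. The Mrc1 log2 ratio turned to -0.43, F13a1 came to 0.40 and Sdc1 to 0.55 in that setting, and 5 of 10 genes were at least 1.5-fold higher and 1 lower, beside 7.77% and 4.83% of all genes. Fn1 came to 1.87, Pmp22 to 1.36, Gpnmb to 1.32 and Ear2 to 1.14 without that cluster, and Thbs1 to 1.02. Spp1 came to -1.59 and so passed 1.5-fold lower. With every cell given equal weight Spp1 also passed that line, at -1.01, while Gpnmb came to 0.90, Mrc1 to 0.78, Ear2 to 0.65, Thbs1 to 0.52, F13a1 to 0.25 and Lpl to -0.53. In that setting 6 of 10 genes were higher and 1 lower, where 13.1% and 6.31% of all genes were. With the 8 clusters that both libraries filled given the same mix in each, F13a1 came to 1.66, Gpnmb to 0.89, Mrc1 to 0.80 and Spp1 to -1.04. There 7 of 9 measured genes were higher and 1 lower, beside 6.45% and 3.68% of all genes. Without cells holding a UMI of Mki67 or Top2a, Thbs1 came to 0.30 and F13a1 to 0.26, and 6 of 10 genes were higher and 0 lower, beside 15.5% and 4.15% of all genes.

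Shares of cells with a UMI depend on depth, so cells were thinned to 2000 UMIs each, which left 1184 Selinexor cells (783 left out) and 1429 DMSO cells (314 left out). Before thinning, Fn1 had a UMI in 32.7% of Selinexor cells and 20.3% of DMSO cells, Thbs1 in 54.4% and 61.3%, Spp1 in 29.2% and 53.8%, and Lpl in 35.9% and 52.7%. After thinning, Fn1 was found in 37.2% of Selinexor cells (34.4 to 40.0) and 9.31% of DMSO cells (7.85 to 10.9). Thbs1 was found in 59.9% of Selinexor cells and 45.2% of DMSO cells, the reverse order of its unthinned shares. Spp1 was found in 22.4% of Selinexor cells and 33.0% of DMSO cells, and Lpl in 37.5% and 39.1%, whose intervals overlap. The thinned shares leave out the many shallow late neutrophil-like cells.

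The less abundant genes were all found in a larger share of thinned Selinexor cells. They were chosen by this contrast, so nothing is read from their common direction. Mrc1 was found in 18.8% of Selinexor cells and 8.68% of DMSO cells, F13a1 in 14.9% and 7.63%, and Gpnmb in 10.5% and 3.08%. Ear2 was found in 4.48% of Selinexor cells and 1.89% of DMSO cells, Pmp22 in 4.48% and 1.33%, and Sdc1 in 3.12% and 0.350%. The late neutrophil-like cells of cluster 4 were set beside them at the same depth, as cells not known for most of these genes. How much of their UMIs is free RNA was not tested, and the same UMIs enter the ratios within cluster 4. There Fn1 was found in 10.8% of Selinexor cells and 3.66% of DMSO cells, Mrc1 in 1.67% and 1.83%, and F13a1 in 1.67% and 2.44%. Spp1 was found in 7.50% of Selinexor and 27.4% of DMSO cells of cluster 4 (20.8 to 34.9), an interval that overlaps the 30.5 to 35.5% of its share in all DMSO cells. Thbs1, found in 79.2% and 79.9% of them, was not rare in these cells.

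In single cells of Selinexor cluster 3 at this depth (344 cells), Fn1 was found in 77.0% of cells with a median of 2 UMIs and a maximum of 40. In DMSO cluster 9 (123 cells) it was found in 28.5% of cells with a median of 0 and a maximum of 7. Lpl was found in 67.4% of cells of Selinexor cluster 3 and 65.0% of cells of DMSO cluster 9, and Mrc1 in 48.0% and 46.3%. Spp1 was found in 43.9% of cells of Selinexor cluster 3 and 63.4% of cells of DMSO cluster 9. Of the 11 DMSO cells in cluster 3 that were deep enough to thin, 5 had a UMI of Fn1 and 10 had a UMI of Spp1. The shares of cells with Fn1 and with Spp1 thus differed between Selinexor cluster 3 and DMSO cluster 9. Those of Lpl and Mrc1 were close at this depth, in clusters that were each the main source of Mrc1 in their library. Single cells overlapped, and Spp1 ran from 0 to 36 UMIs in Selinexor cluster 3 and from 0 to 33 in DMSO cluster 9.

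Of all Spp1 UMIs, 87.8% in the Selinexor library and 72.4% in the DMSO library came from the 10% of cells that held the most, and its highest cell had 180 UMIs with Selinexor and 241 with DMSO. Mrc1 had 83.3% and 89.7% there, and F13a1 84.1% and 89.1%. Thbs1 was the most even of the set, with 54.0% of its UMIs in those 10% of Selinexor cells and 50.0% in those of DMSO cells. Fn1 had 73.3% and 83.6% of its UMIs in those cells, and its highest cell had 139 UMIs in the Selinexor library and 32 in the DMSO library.

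**Figure D4:**
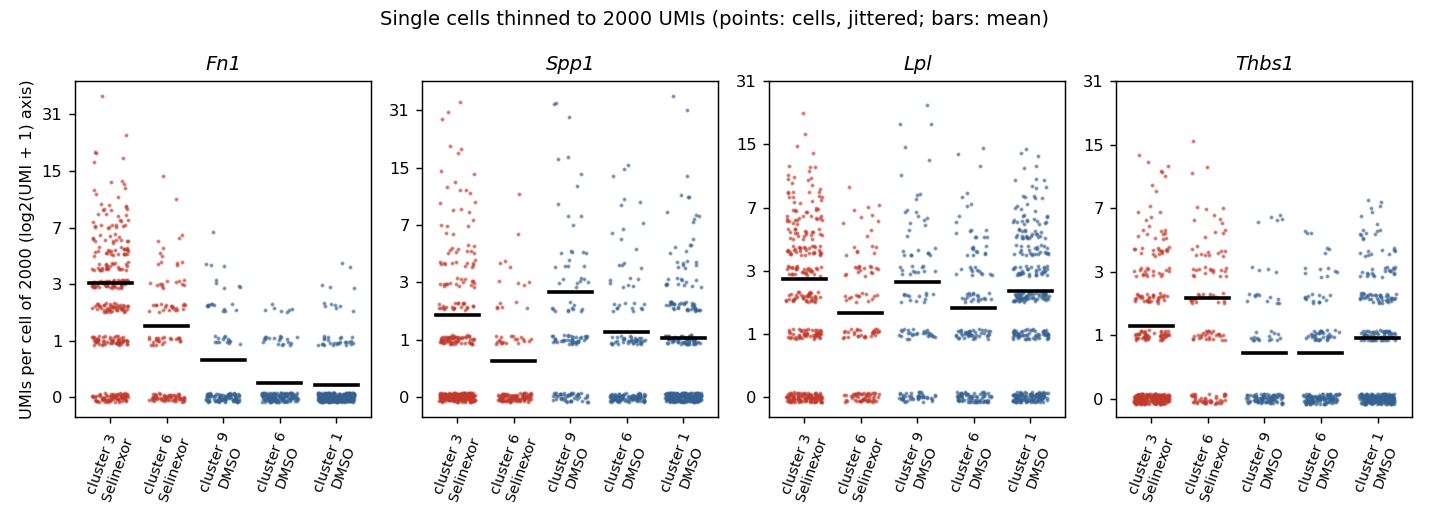
UMIs per cell after thinning to 2000 UMIs (log2(UMI + 1) axis) for Fn1, Spp1, Lpl and Thbs1 in Selinexor clusters 3 and 6 (red) and DMSO clusters 9, 6 and 1 (blue), with 1 point per cell and a bar at the mean. The Fn1 mean is 3.06 UMIs in Selinexor cluster 3 and 0.585 in DMSO cluster 9, and the Spp1 mean is 1.69 and 2.56 in the same clusters.

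The number of the 10 genes found per cell was counted at the same depth. Since the genes were chosen by the contrast, nothing is read from a larger number in Selinexor cells. Other genes were not counted in this way. A cell of Selinexor cluster 3 had a median of 3, as did a cell of DMSO cluster 9, and 5 or more were found in 24.4% and 10.6% of these cells. In cluster 6, 5 or more were found in 12.3% of Selinexor cells and 1.18% of DMSO cells. Within Selinexor cluster 3, 67.2% of the 265 cells with Fn1 also had Lpl, beside 67.4% of all its cells, and 46.8% also had Spp1, beside 43.9%. Across the 344 cells of that cluster, log counts of Spp1 and Lpl had a Pearson correlation of 0.36, and across the 123 cells of DMSO cluster 9 one of 0.39. Fn1 with Spp1 (0.05) and Fn1 with Lpl (0.03) showed almost none, and such sparse counts from 1 library share their depth and source.

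Genes that partner with the set were read from fixed lists, all over whole libraries. Each count of a list stands beside 9.83% of all measured genes at least 1.5-fold higher and 3.88% lower. The lists are short, so no count is read as a result about its list. Of 8 measured receptors for fibronectin and osteopontin, 2 were at least 1.5-fold higher with Selinexor and 0 lower, with a list median of 0.41. The integrin subunit Itga4 had 380 UMIs in the Selinexor library and 204 in the DMSO library (log2 ratio 1.00), and Itgb5 had 321 and 221 (0.65). Itgb1 (0.55) and the osteopontin receptor Cd44 (0.49) stayed under 1.5-fold. Of 5 measured receptors for thrombospondin and genes of TGF-beta activation (median 0.30), 1 was higher and 0 lower. It was Cd36, a receptor for thrombospondin and fatty acids, with 51 UMIs in the Selinexor library and 16 in the DMSO library. Of 6 measured matrix genes other than Fn1, Thbs1 and Spp1, 0 were higher and 0 lower, and versican (Vcan) stood at 0.41.

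Of 13 measured matrix proteases and inhibitors, 3 were higher and 1 lower, with a median of 0.13, the same as for all genes. The macrophage elastase Mmp12 had 11781 UMIs in the Selinexor library and 8431 in the DMSO library (0.63), the membrane protease Mmp25 had 297 and 105 (1.53), and the inhibitor Timp1 had 78 and 205 (-1.12). The third higher gene was the collagen-degrading protease Ctsk, on 57 UMIs with Selinexor and 15 with DMSO. Among 7 measured coagulation and crosslinking genes other than F13a1 (median with it 0.48), 3 were higher, Tgm2, Tfpi and Thbd, and 1 lower. The transglutaminase Tgm2 had 659 UMIs with Selinexor and 387 with DMSO (0.89), and the plasminogen activator inhibitor Serpinb2 had 50 and 120 (-0.95). Among 10 proteoglycan genes other than Sdc1 (median with it 0.41), 2 were higher, the heparan sulfate enzymes Ext1 (0.81) and Ndst1 (0.72), and 1 was lower, syndecan 4 (Sdc4, 760 UMIs with Selinexor and 1301 with DMSO, -0.62).

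Of 19 measured genes of lipid uptake, storage and efflux other than Lpl (median with it 0.33), 4 were higher, Abcg1, Apoe, Cd36 and Nr1h3, and 1 lower. Of all measured genes, 9.83% were higher and 3.88% lower. The sterol exporter Abcg1 had 2642 UMIs in the Selinexor library and 1480 in the DMSO library (0.98). The lipid receptor Trem2, in contrast, had 325 UMIs with Selinexor and 818 with DMSO (-1.15). Among 12 genes of lipid-laden macrophages other than Gpnmb (median with it 0.48), 4 were higher, Atp6v0d2, Ctsd, Cd9 and Cd63, and 1, Trem2, was lower. The vacuolar ATPase subunit Atp6v0d2 had 485 UMIs in the Selinexor library and 139 in the DMSO library (1.85), and the lysosomal protease Ctsd had 16393 and 7516 (1.27).

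Of 6 measured genes of alternative activation other than Mrc1 (median with it 0.42), 1 was higher and 1 lower. The lectin Clec10a had 198 UMIs with Selinexor and 83 with DMSO (1.26), and the arginase Arg1 had 13 and 50 (-1.17). Among the 4 measured ribonucleases other than Ear2 (median with it -0.67), Ear6 had 443 UMIs in the Selinexor library and 148 in the DMSO library (1.64), and Rnase4, Rnase6 and Ang were lower. Rnase4 had 90 UMIs with Selinexor and 215 with DMSO (-1.01). Of 4 measured relatives of Pmp22 and the claudins, 0 were higher and 1 lower, Emp2 on 22 UMIs with Selinexor and 68 with DMSO. Cd36, Ctsk, Thbd, Nr1h3, Cd63, Arg1, Ang and Emp2 were named after their values were seen, to complete these counts.

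By a fixed rule, genes most like each of the set were taken from 5303 candidates over 21 sums of library and cluster, by Pearson correlation of log2(CPM + 1). Among those most like Fn1 were the chemokine receptor Ccr2 (0.87) and the transcription factor Klf4 (0.87), although Ccr2 itself had a whole-library log2 ratio of only 0.23. Spp1 was most like Ccdc86 (0.92), Lat2 (0.90) and the chemokine Ccl2 (0.89). Lpl was most like Rexo2, Selenow and P2ry14, each at 0.90, and Mrc1 like Rab3il1 (0.91), Prdx4 (0.90) and Evl (0.89). Thbs1 was most like Dach1 (0.86), Rbpms and Nedd9 (both 0.83), and Ncoa3 (0.85) and Ctsb (0.85) were among those most like Gpnmb. The sums share libraries and cells of 1 culture, so these values describe where the genes are found together.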

How the data were processed

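The authors deposited raw UMI counts per gene and cell, per the file headers by Cell Ranger 6.1.2, on build mm10 per the submitters' processing notes. How barcodes were chosen, and the annotation release, is not given in the sources used here. Of 1989 Selinexor and 1784 DMSO barcodes, those with 200 or more genes found and a mitochondrial share under 10% were kept. The 12 tag features entered no total. Scrublet marked 5 Selinexor and 1 DMSO cells (0.162%), too few for the caller to have worked, so doublets were not removed.

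Counts were summed per library or cluster and scaled to CPM, and log2 ratios use a pseudocount of 1 CPM. Counts have exact Poisson, ratios conditional binomial and shares Clopper-Pearson 95% intervals, all for counting error only. The ratio script was tested on simulated data. Clustering used scanpy 1.11.5 and leidenalg 0.10.2 (2000 variable genes, 30 principal components, 15 neighbours, resolution 1.0). edgeR 4.0.16 gave TMM factors for an alternative scaling. Coordinates are from a GENCODE annotation of mm10 and upstream sequences from RefSeq.

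The genes, lists and rules were chosen with earlier results of these data known. All 10 genes are named. Of each list, up to 4 genes with at least 100 UMIs and the largest ratios could be named, and per gene the 3 most correlated of those with at least 500 UMIs. Other settings tried were scaling, pseudocount, count minimum, cell filters, cell weighting, thinning, state mix, doublets, cycling cells and the clustering. A few genes that these rules name are not reported here.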

Additional observations from a re-analysis of the deposited data

How the results depend on the processing

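With 1 library per group no replicate can be left out. No paired analysis was possible because each group holds 1 library and no pair exists. Of 148 values of single genes under other settings, 87 moved by less than their counting interval, 60 moved further, and 1 that had been past 1.5-fold changed sign, Mrc1 at -0.43 without cluster 3. Lpl, near 0, changed sign as well, as given next. The settings without cluster 3 and without clusters 1, 3 and 9 were chosen after seeing the data.

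Spp1 stayed below 0 in all 15 settings (-1.59 to -0.23) and Lpl fell below 0 in 6 of 15 (-0.58 to 0.17). The count of genes at least 1.5-fold lower became 1 with every cell weighted equally, with the same state mix in both libraries, without cluster 3, and without clusters 1, 3 and 9, and that gene was Spp1. The count at least 1.5-fold higher was 5 without cluster 3 (7.77% of all genes), 6 with equal weight (13.1%) and also 6 when cells with a UMI of Mki67 or Top2a were left out (15.5%). The median of the set was 0.71 with equal weight, 0.89 with the same state mix and 0.78 without cluster 3. With the 10 genes kept among the variable genes, 17 of 52 pairs of gene and cluster were lower (13.5% of pairs over all genes), against 11 of 58 (13.9%). Gpnmb was then higher in 3 and lower in 2 of 6 clusters and Mrc1 higher in 1 and lower in 1 of 5. At resolution 0.5 Gpnmb was higher in 3 and lower in 1 of 5, and Mrc1 higher in 1 and lower in 1 of 4. With expression centred per library before clustering, 38 of 72 pairs were higher and 14 lower (17.1% and 14.6% of pairs over all genes). Fn1 was then higher in 8 of 9 clusters and Spp1 lower in 9 of 10. The other cluster held 3750 Spp1 UMIs in Selinexor cells and 2749 in DMSO cells, the most of any, at a log2 ratio of -0.51. There Mrc1 (0.24), F13a1 (-0.09) and Lpl (0.04) were also under 1.5-fold. Fn1 (2.46), Thbs1, Gpnmb, Ear2, Pmp22 and Sdc1 were higher in it. The cause of these shifts was not tested.

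TMM scaling moved the median of all genes by -0.12 and median-of-ratios scaling by -0.14. With median-of-ratios scaling, 5.75% of all genes were at least 1.5-fold higher and 6.47% lower, and TMM gave 6.0% and 6.23%. The set kept 8 higher and 0 lower under both, and Lpl was at -0.04 with TMM. Depth limits Sdc1, Ear2 and Pmp22 most, with 57, 150 and 79 UMIs in the DMSO library.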

Other observations

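The other 4 genes had matches of 0.75 to 0.85 over the same 21 sums of library and cluster. F13a1 was most like Ppp5c (0.81), Ap3d1 and Iars2 (both 0.79), Pmp22 like Eif4g1 (0.85), Hars and Vps33a (both 0.81), and Sdc1 like Ppp2r1a (0.84), Aplp2 (0.84) and the cholesterol exporter Abca1 (0.83). Ear2 was most like Baz1a (0.80), Acaa2 (0.76) and the nuclear receptor Pparg (0.75).

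The migratory dendritic cell-like cluster 11 held 35 Selinexor cells and 5 DMSO cells, too few in the DMSO library for a ratio. In its Selinexor cells Gpnmb had 35 UMIs (89.0 CPM) with a UMI in 40.0% of cells, Sdc1 12 UMIs (30.5 CPM), and Mrc1 2 UMIs.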
